A study of Mus musculus with 32 samples.

Results

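Best1, Cnn2, Bace2, Homez, Tulp2, Tsen15 and Pomc are 7 genes that were chosen by their measured ratios, which differed between muscle and pancreas of Nox4 knockout mice. They were found by gene symbol in the probe annotation of the array, and they are 7 of the 16257 genes that could be compared across the tissues. Each probe without a symbol counts as a gene of its own in that number and in all shares of genes below. Cnn2 was measured by 2 probes and each of the other genes by 1 probe. Because the genes were selected on the muscle and pancreas values, these are given as a description without a test, and only kidney and brain values were tested.

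The samples were muscle, pancreas, kidney and brain of 4 male knockout mice (Nox4 -/-, C57BL/6, 17 weeks old). Each tissue sample was set against pooled RNA of wild-type males that had the same strain and age. Every tissue sample was hybridised to 2 cDNA arrays with the dyes exchanged, so each tissue had 8 arrays and the series 32. In each tissue the wild-type pool counts as 1 control sample, so no value includes the spread between wild-type animals. A difference between tissues also holds any difference between the wild-type RNA they were set against. The labels give 4 animals for the pool in one place and another number in the labelling protocol. The knockout allele is given only as -/-, and 0 probes carry the name Nox4, so the deletion could not be checked on these arrays.

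Each value is a deposited log2 ratio, likely knockout over pool, so a value of 0 means equal signal. If the ratio runs the other way, higher and lower swap throughout. The arrays carried 19815 to 20684 values each, and all 32 arrays had a value for all 8 probes of these genes. The 2 arrays of an animal correlated across probes at r from −0.576 to 0.063, and in 14 of 16 pairs r was below 0. Whether the ratios of the arrays with the knockout in Cy3 were turned before deposition is not given in the sources used here. Signs were kept as deposited, and values with these arrays turned are given where they alter a direction. Ratios hold no absolute level, so the tissue labels could not be checked against tissue markers, and fewer cells of a type cannot be told apart from less RNA per cell.

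Nox4 is an NADPH oxidase that constitutively makes hydrogen peroxide and is best known from kidney, blood vessels and fibroblasts. The 7 genes belong to no single pathway. Cnn2 encodes calponin 2, an actin-binding protein of smooth muscle and non-muscle cells, and Bace2 a membrane-bound aspartyl protease related to the beta-secretase Bace1. Best1 encodes a calcium-activated chloride channel of the retinal pigment epithelium, and Pomc the precursor of corticotropin, melanocortins and beta-endorphin, made in the pituitary and in hypothalamic neurons. Homez encodes a nuclear protein with homeodomains and leucine zippers, Tulp2 a tubby family protein known mainly from testis, and Tsen15 a subunit of the endonuclease that removes introns from precursor tRNAs.

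Promoter windows of 3 of the genes are shown: Cnn2 for its lead in muscle over pancreas, Best1 for the highest pancreas mean as deposited, and Pomc as the hormone gene of the set. Each covers 250 bases before to 50 after the annotated start, from RefSeq on GRCm38.p6, at chr10:79988350-79988649 (plus strand) for Cnn2, chr19:10001584-10001883 (minus strand) for Best1 and chr12:3954695-3954994 (plus strand) for Pomc. Capitals mark matches on either strand to 3 core promoter motifs. The TATA box was searched as TATAAA. The motif of CCAAT boxes was searched by those 5 letters. The GC box, the binding motif of Sp1, was searched as GGGCGG.
Cnn2: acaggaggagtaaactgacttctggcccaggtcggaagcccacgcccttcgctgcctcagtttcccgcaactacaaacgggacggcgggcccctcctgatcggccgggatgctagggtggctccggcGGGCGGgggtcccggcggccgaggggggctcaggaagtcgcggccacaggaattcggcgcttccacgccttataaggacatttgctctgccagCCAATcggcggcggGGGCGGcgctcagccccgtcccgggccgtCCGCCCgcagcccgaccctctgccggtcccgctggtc
Best1: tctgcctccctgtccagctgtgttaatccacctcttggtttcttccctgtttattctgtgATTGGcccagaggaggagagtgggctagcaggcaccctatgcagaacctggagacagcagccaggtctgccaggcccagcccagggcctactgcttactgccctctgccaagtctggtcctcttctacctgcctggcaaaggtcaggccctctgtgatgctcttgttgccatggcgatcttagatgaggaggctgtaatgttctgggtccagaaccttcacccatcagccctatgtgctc
Pomc: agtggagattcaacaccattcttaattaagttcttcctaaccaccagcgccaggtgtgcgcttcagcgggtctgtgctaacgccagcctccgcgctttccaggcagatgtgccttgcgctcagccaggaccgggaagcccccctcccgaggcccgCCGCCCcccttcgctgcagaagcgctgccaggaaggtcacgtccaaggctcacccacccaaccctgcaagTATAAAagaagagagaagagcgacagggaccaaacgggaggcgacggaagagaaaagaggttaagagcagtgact
The Cnn2 window held 3 GC boxes and 1 CCAAT box, the Best1 window 1 CCAAT box, and the Pomc window 1 TATA box and 1 GC box. Of 32851 promoter windows of the same length, 35.7% held a GC box, 37.4% a CCAAT box and 13.6% a TATA box. The table had windows for 6 of the 7 genes, 8 windows in all. None of these 8 held the antioxidant response element TGACNNNGC, which 12.4% of all windows held, or the letters TGACG, which 20.8% held. The hypoxia response core ACGTG occurred once in the Pomc window and in 19.6% of all windows. A match of letters is a description and not a site.

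Cnn2 and Bace2 were the genes that stood higher in muscle. Cnn2 had ratios of 0.41, 0.93, 0.23 and 0.48 in muscle of animals 1 to 4, against −0.79, −0.73, −0.33 and −0.57 in pancreas of the same animals. All 4 muscle values lay above 0, all 4 pancreas values below it, and animal 2 was highest in muscle. The means were 0.51 ± 0.30 in muscle and −0.61 ± 0.21 in pancreas (SD, n = 4 each), a difference of 1.12 ± 0.13 (SE of limma's fit), or 2.17-fold. By array, 7 of 8 muscle arrays lay above 0 and 0 of 8 pancreas arrays did.

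The order of the tissues for Cnn2 was muscle, kidney, brain and pancreas with the signs as deposited. With the Cy3 arrays turned the order was the reverse, the muscle mean being −0.25 and the pancreas mean −0.03, with kidney at −0.20 and brain at −0.10 between them. In kidney its mean was 0.04 ± 0.05 and in brain −0.14 ± 0.12 (SD, n = 4 each), and the animals of these 2 tissues did not overlap. Both probes of Cnn2 were higher in muscle than in pancreas. The first probe averaged 0.18 in muscle and −0.86 in pancreas, and the second 0.85 in muscle and −0.35 in pancreas. One probe thus carried most of the muscle value and the other most of the pancreas value.

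Bace2 showed the highest ratio of the set. It had 0.74, 1.96, 1.03 and 1.31 in muscle of animals 1 to 4, against −0.82, −0.20, −0.39 and 0.13 in pancreas. Every muscle value exceeded every pancreas value, but 1 pancreas animal lay above 0. The means were 1.26 ± 0.52 in muscle and −0.32 ± 0.40 in pancreas (SD, n = 4 each), a difference of 1.58 ± 0.25 (SE), or 2.98-fold.

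Single arrays of Bace2 ran from 0.65 to 1.97 in muscle and from −1.15 to 0.20 in pancreas. It was the only member whose 8 muscle arrays and 8 pancreas arrays did not overlap, a property of 0.203% of all genes tested. The choice of the genes favoured this property. Bace2 lay at 0.06 ± 0.28 in kidney and −0.24 ± 0.28 in brain (SD, n = 4 each). The animals of kidney, brain and pancreas overlapped for Bace2, so only muscle stood apart in the order of its tissues. Its SD exceeded that of 93.2% of genes in muscle and 95.5% in kidney.

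Best1 was highest in pancreas. Its ratios were 0.24, −0.05, 0.08 and 0.32 in muscle of animals 1 to 4, against 0.76, 0.63, 0.73 and 1.12 in pancreas. The groups did not overlap, yet 3 of 4 muscle animals also lay above 0. The means were 0.15 ± 0.17 in muscle and 0.81 ± 0.21 in pancreas (SD, n = 4 each), a difference of −0.66 ± 0.11 (SE), or a muscle to pancreas ratio of 0.631. Muscle, kidney and brain followed pancreas in the order of means and overlapped one another. With the signs as deposited, Best1 therefore did not move in opposite directions in the 2 tissues, unlike the name of the group. With the Cy3 arrays turned it did, with −0.08 in muscle and 0.20 in pancreas. As deposited, the other 6 genes had means of opposite sign, as did 51.2% of all genes tested. The choice of the genes favoured that property.

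Pomc had −0.18, −0.13, −0.06 and −0.13 in muscle of animals 1 to 4, against 0.81, 0.37, 0.38 and 0.48 in pancreas. All muscle values were just below 0 and all pancreas values above it, with animal 1 highest in pancreas. The means were −0.12 ± 0.05 in muscle and 0.51 ± 0.21 in pancreas (SD, n = 4 each), a difference of −0.63 ± 0.10 (SE). Kidney and brain stood between pancreas and muscle, and the muscle animals lay below all brain animals but overlapped those of kidney. The SD of Pomc in muscle was smaller than that of all but 3.82% of genes. That narrow spread stands on array pairs that differed: muscle arrays averaged 0.28 with the knockout in Cy5 and −0.52 with it in Cy3.

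Homez had −0.04, −0.20, −0.17 and −0.13 in muscle of animals 1 to 4, against 0.99, 0.61, 0.69 and 0.15 in pancreas. The pancreas values were all above the muscle values and covered a wide range, with animal 4 lowest. The means were −0.14 ± 0.07 in muscle and 0.61 ± 0.35 in pancreas (SD, n = 4 each), a difference of −0.74 ± 0.13 (SE). Brain, kidney and muscle followed pancreas in that order, with overlapping animals.

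Tulp2 had −0.10, −0.03, −0.47 and −0.29 in muscle of animals 1 to 4, against 0.63, 0.25, 0.48 and 0.44 in pancreas. Muscle was below 0 and pancreas above it in every animal. The means were −0.22 ± 0.20 in muscle and 0.45 ± 0.16 in pancreas (SD, n = 4 each), a difference of −0.67 ± 0.11 (SE). As for Homez, the animals of brain, kidney and muscle overlapped.

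Tsen15 had −0.09, −0.14, −0.36 and −0.49 in muscle of animals 1 to 4, against 0.23, 0.88, 0.41 and 0.35 in pancreas. As in Tulp2, no animal of either tissue crossed 0, and animal 2 stood highest in pancreas. The means were −0.27 ± 0.19 in muscle and 0.47 ± 0.28 in pancreas (SD, n = 4 each), a difference of −0.74 ± 0.13 (SE). Kidney and brain lay between, kidney overlapping brain and brain overlapping muscle.

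**Figure D1:**
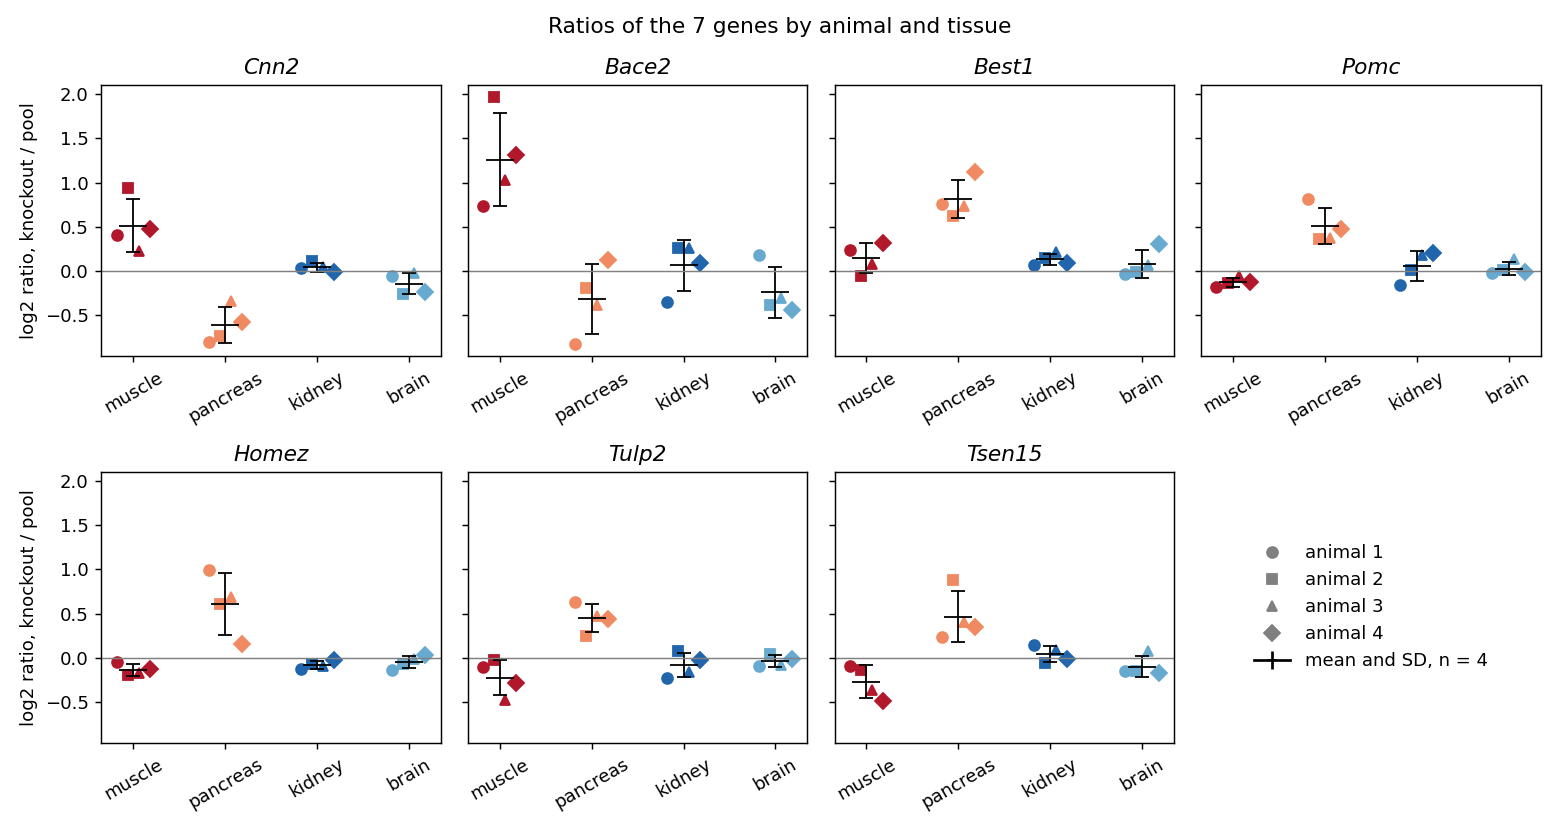
Log2 ratio of knockout over wild-type pool (vertical axis) for each of the 7 genes in muscle, pancreas, kidney and brain; points are animals, and bars give the mean and SD of 4 animals. Muscle and pancreas points do not overlap in any panel, and kidney and brain points lie between −0.44 and 0.31.

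Animals of muscle and pancreas did not overlap for any of the 7 genes, a property of 4.74% of all genes tested (2.29% with muscle higher, 2.45% with muscle lower) that the choice of the genes brought with it. In muscle alone, 6 of the 7 had all animals on 1 side of 0, as did 19.4% of all genes, and in pancreas alone 6 of 7, as did 11.2%. For 6 of the 7, all but Bace2, the 4 pancreas animals lay outside the range of the 12 animals of the other tissues, as they did for 0.627% of all genes. For Bace2 and Cnn2 the 4 muscle animals lay outside that range, as for 1.46% of all genes. Cnn2 was thus apart in both tissues, Bace2 in muscle, and the other 5 in pancreas. The choice of the genes by their muscle and pancreas values favoured all these properties, so nothing is read from the counts.

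At the edge of the choice, the named genes with the fifth and sixth smallest p among those higher in muscle were Bace2, with its difference of 1.58, and 2310030G06Rik, with 1.11 ± 0.19 (SE). Among those lower in muscle they were Tsen15, with −0.74, and Cd80, a ligand of T-cell costimulation, with −0.79 ± 0.14. The contrast as a whole called 94 of 16257 genes (0.578%) by limma with Benjamini-Hochberg adjustment, 71 higher (0.437%) and 23 lower (0.141%) in muscle. That count fell to 24 with the animal as a block and to 1, 2 and 3 without animal 2, 3 or 4, and was 115 without animal 1. Within muscle and within pancreas no gene passed at that threshold, while 1215 of 16662 genes in muscle and 477 of 16377 in pancreas had an unadjusted p below 0.05, where 5% of the genes would be 833 in muscle and 819 in pancreas.

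The single arrays divided the 7 genes by how far the dye orientations matched. Bace2 kept its difference between muscle and pancreas in both orientations: it was 1.70 where Cy5 labelled the knockout and 1.45 where Cy3 did. For Cnn2 these differences were 0.90 in Cy5 and 1.34 in Cy3, without overlap of the tissues in either orientation. In all, the tissues did not overlap on Cy5 arrays for 4 of the 7 genes (7.04% of all genes) and on Cy3 arrays for 4 of the 7 (5.86%). The choice of the genes used these same arrays and favoured such separation, so nothing is read from these shares. Best1 had −0.95 in Cy5 and −0.38 in Cy3, and its pancreas arrays ran from −0.22 to 1.90.

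Homez, Tsen15 and Pomc kept the direction in both orientations but not the side of 0. Homez pancreas arrays averaged 1.20 with the knockout in Cy5 and 0.02 with it in Cy3. Its muscle arrays averaged 0.22 in Cy5 and −0.49 in Cy3, so both tissues shifted with the dye. Tsen15 muscle arrays averaged −0.73 in Cy5, with animal 4 as low as −1.87, and 0.19 in Cy3. The Pomc difference was −0.54 in Cy5 and −0.72 in Cy3.

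Tulp2 did not keep the direction. Its pancreas arrays averaged −0.40 with the knockout in Cy5 and 1.30 with it in Cy3, and the difference of muscle minus pancreas was 0.21 in Cy5 and −1.55 in Cy3. The positive pancreas mean of Tulp2 thus rested on the Cy3 arrays. The other 6 genes kept the same sign in both orientations, as did 44.1% of all genes tested. The difference that chose the genes averages both orientations, which favours matching signs, so this count gives no separate support.

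**Figure D2:**
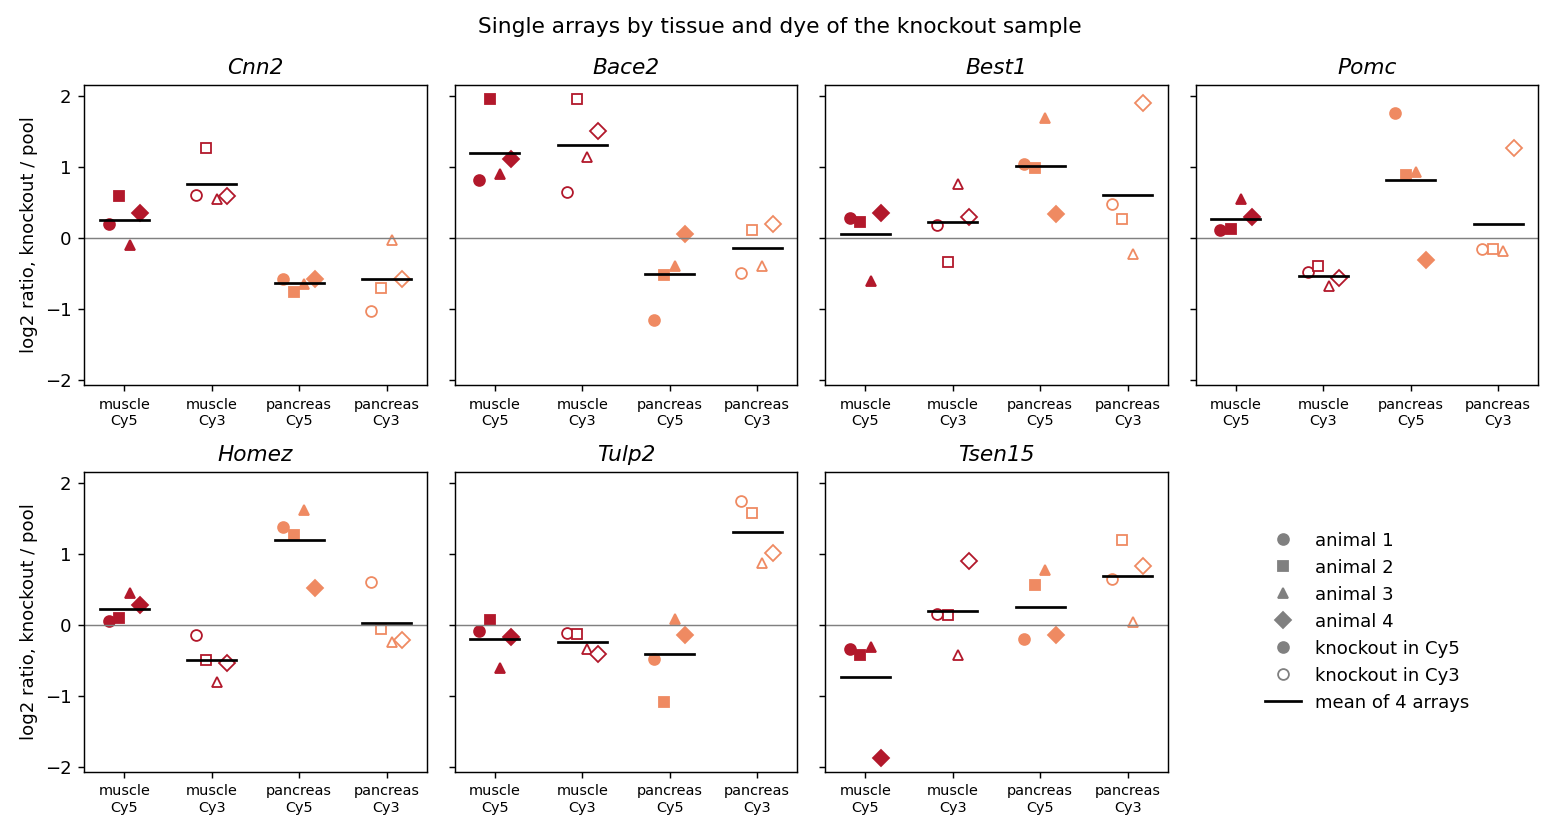
Log2 ratio on each single array of muscle and pancreas, split by the dye of the knockout sample; filled symbols are Cy5, open symbols Cy3, and lines give the mean of 4 arrays. Bace2 keeps muscle above pancreas in both dyes, and Tulp2 pancreas averages −0.40 in Cy5 and 1.30 in Cy3.

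With the Cy3 arrays turned, the differences of muscle minus pancreas became −0.22 for Cnn2, 0.12 for Bace2, −0.29 for Best1, 0.09 for Pomc, −0.23 for Homez, 0.88 for Tulp2 and −0.25 for Tsen15. Cnn2, Tulp2 and Pomc changed direction under that reading. The muscle mean of Bace2 was then −0.06 and the pancreas mean of Best1 was 0.20, below those of Homez (0.59) and Pomc (0.31). Muscle means also changed sign for Best1 (−0.08), Pomc (0.40), Homez (0.35) and Tulp2 (0.02). Pancreas means changed sign for Tulp2 (−0.85) and Tsen15 (−0.22). The direction of all statements on muscle and pancreas therefore holds for the signs as deposited.

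The choice did not use the kidney and brain means, although the spread within these tissues entered the fit by which the muscle minus pancreas differences were ranked. By limma, 0 of 7 genes passed in kidney, 0 of 7 in brain and 0 of 7 in the difference of kidney minus brain. The background was also 0%: no gene of 16825 in kidney, of 16729 in brain or of 16257 in their difference passed. At an unadjusted p below 0.05 there were 1562 genes in kidney, 691 in brain and 475 in the difference, where 5% of the genes would be 841, 836 and 813.

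Best1 came nearest to a call in kidney. Its kidney values were 0.07, 0.15, 0.22 and 0.10 in animals 1 to 4, against −0.04, −0.01, 0.07 and 0.31 in brain. All 4 kidney animals lay above 0. The kidney mean was 0.13 ± 0.07 (SD, n = 4; 95% interval 0.03 to 0.24), with a limma adjusted p of 0.513. In kidney 2 of the 7 genes, Best1 and Homez, had all animals on 1 side of 0, as did 20% of all genes. In brain 1 of 7 did, Cnn2, against 15.8% of all genes.

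Cnn2 had 0.04, 0.11, 0.04 and −0.01 in kidney of animals 1 to 4, against −0.05, −0.26, −0.02 and −0.24 in brain. Every kidney value lay above every brain value. Kidney and brain animals did not overlap, in either direction, for 5.86% of all genes. The kidney arrays averaged −0.16 with the knockout in Cy5 and 0.24 with it in Cy3, so the kidney mean joins values of opposite sign. The difference of kidney minus brain was 0.19 (95% interval −0.11 to 0.48), limma adjusted p = 1, and −0.10 with the Cy3 arrays turned. Bace2 had −0.35, 0.26, 0.26 and 0.09 in kidney of animals 1 to 4, against 0.18, −0.39, −0.31 and −0.44 in brain. Animal 1 went against the other animals in both tissues. The Bace2 difference was 0.30 (95% interval −0.25 to 0.86), limma adjusted p = 1.

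Homez averaged −0.08 ± 0.04 in kidney and −0.05 ± 0.07 in brain, and Tulp2 −0.08 ± 0.13 in kidney and −0.04 ± 0.06 in brain (SD, n = 4 each). Tsen15 averaged 0.04 ± 0.09 in kidney and −0.10 ± 0.12 in brain, and Pomc 0.06 ± 0.17 in kidney and 0.03 ± 0.07 in brain. For these 4 genes the kidney and brain animals overlapped. The 95% intervals of the kidney minus brain differences reached no further than −0.31 for Homez and 0.42 for Tsen15. Pomc is made in hypothalamic neurons, and in the brain samples its ratio stayed between −0.02 and 0.13 in the 4 animals.

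No measured relative of the 7 genes passed the test in muscle minus pancreas, beside 0.578% of all genes, a share at which few or no calls would fall on lists of this size. Cnn3, the other calponin measured, had 0.02 ± 0.11 in muscle and 0.13 ± 0.16 in pancreas (SD, n = 4 each), limma adjusted p = 0.723 for the difference. Bace1, the main beta-secretase of neurons, had −0.02 ± 0.18 in muscle and 0.05 ± 0.05 in pancreas, adjusted p = 0.759 by limma. None of the 13 measured relatives and substrates of Bace2 passed the test in either direction. The nearest was Ncstn, a gamma-secretase subunit, with 0.66 in muscle and −0.74 in pancreas and a limma adjusted p of 0.056. Of 15 measured calponin and smooth muscle cytoskeleton genes beside Cnn2, 8 were above and 7 below 0 in the difference, and of 8 chloride channel genes beside Best1, 4 were above and 4 below, with 0 called in either list.

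In the tubby family, Tub had −0.01 in muscle and 0.15 in pancreas, Tulp3 −0.08 in muscle and 0.22 in pancreas (3 animals), and Tulp4 −0.12 in muscle and −0.16 in pancreas. Tub and Tulp3 lay on the side of Tulp2 in both tissues, but none of the 3 passed. Zhx1, Zhx2 and Zhx3, repressors with homeodomains and the nearest measured relatives of Homez, had −0.02, 0.04 and −0.18 in muscle and 0.01, −0.08 and −0.06 in pancreas. None of these passed either. Of the 9 genes of tRNA splicing and processing measured beside Tsen15, 3 were above and 6 below 0 in muscle minus pancreas, and 0 were called.

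No measured gene that processes the Pomc precursor passed the test in muscle minus pancreas. Cpe, the carboxypeptidase that trims its peptides, had −0.03 ± 0.08 in muscle and −0.10 ± 0.10 in pancreas (SD, n = 4 each). Pam, which amidates melanocortin, had 0.04 in muscle and 0.02 in pancreas. Scg5, the chaperone of a prohormone convertase, had 0.07 in muscle and 0.03 in pancreas. Prcp and Cpd, both peptidases, had 0.08 and −0.03 in muscle and −0.03 and −0.04 in pancreas, and Mrap, the partner of the corticotropin receptor, −0.01 in muscle and −0.15 in pancreas. Pcsk1n, a convertase inhibitor, had 0.03 ± 0.16 in muscle and −1.23 ± 2.08 in pancreas, where animal 2 alone was far below 0. Lepr, the leptin receptor, and Nr4a1, an orphan nuclear receptor, ran the way of Pomc and are named here for that reason, after their values were seen. Lepr had −0.24 in muscle and 0.49 in pancreas (limma adjusted p = 0.170 for the difference), and Nr4a1 −0.14 in muscle and 0.30 in pancreas (limma adjusted p = 0.215). Of the 13 genes of this list beside Pomc, 8 were above and 5 below 0 in the difference, and 0 were called.

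**Figure D3:**
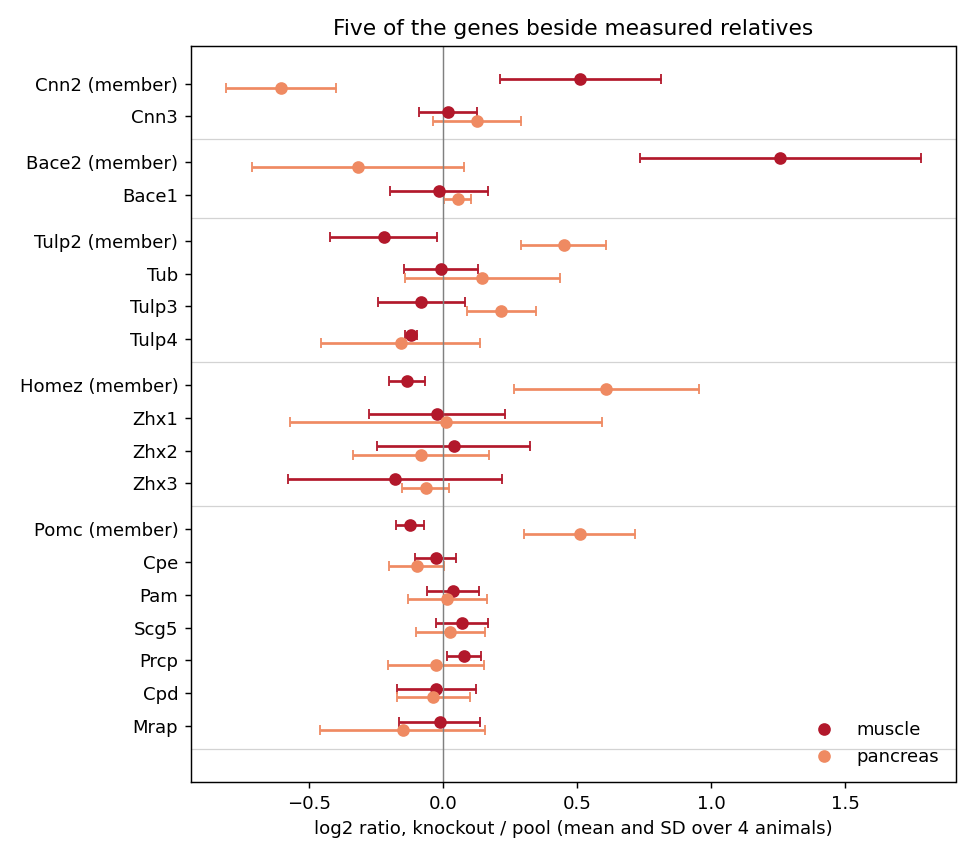
Mean log2 ratio and SD over 4 animals in muscle (dark) and pancreas (light) for 5 of the genes, each above its measured relatives or processing enzymes. Tulp3 in pancreas had 3 animals. The means of the relatives drawn here lie between −0.18 and 0.22, and those of Cnn2 and Bace2 reach 0.51 and 1.26 in muscle. Pcsk1n and the wider gene lists, with Ncstn among them, are not drawn.

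Markers of the cell types that muscle and pancreas samples can hold were compared in the same fit. None of the 10 measured acinar, 6 islet, 9 duct, 20 skeletal muscle fibre, 10 adipocyte, 13 fibroblast, 9 macrophage, 10 lymphocyte, 7 pituitary and hypothalamic, 5 red blood cell or 1 pigment cell markers passed in muscle minus pancreas, where 0.578% of all genes passed, so the absence of calls says little about cell types. Their list medians ran from −0.10 to 0.09, beside −0.02 over all genes. Of 11 markers of testis and retina, tissues where Tulp2 and Best1 are best known, 4 were above and 7 below 0 in muscle minus pancreas. Crisp2, a sperm protein with values from 3 pancreas animals, was called lower in muscle, with a difference of −0.61 ± 0.12 (SE, limma adjusted p = 0.047). The mean of those 11 markers ran from −0.11 to −0.05 over the muscle animals and from 0.08 to 0.18 over the pancreas animals. That mean was lower in muscle than in pancreas, as the 5 genes lower in muscle were, but the single markers were divided. Its part in the values of the 5 genes was not tested.

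Across the 16 animal and tissue combinations, each gene was also followed within tissues, by its deviation from the tissue mean. Among 14476 genes with all 16 values, the named genes most like Bace2 were Flrt3, a membrane adhesion protein (r = 0.982), and Mrpl51, a mitochondrial ribosomal protein (r = 0.980). Flrt3 averaged 1.21 in muscle and −0.19 in pancreas, and Mrpl51 0.85 in muscle and −0.07 in pancreas. In all 3 genes, animal 2 was highest and animal 1 lowest in muscle. These correlations are descriptions over values that share animals, arrays and pool.

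Bace2 had 62 genes at r above 0.9, all 62 of them above 0 in muscle, as were 41.6% of all genes, and 14 of them were called higher in muscle than in pancreas, as were 0.437% of all genes. Genes picked for likeness to Bace2 share its muscle values, so nothing is read from these counts. The probe numbers of these genes were uneven: 46.8% of them had a probe among the highest-numbered 10% of probes, against 11.8% of all genes. Bace2 itself and 1 of the probes of Cnn2 lie there. Of the 71 genes called higher in muscle, 13 (18.3%) had a probe in that range, beside 11.6% of all genes tested. What the numbering stands for on the array is not given, and its part in the Bace2 and Cnn2 values was not tested.

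The most similar named genes of the other 6 were less close. They were Os9 and Chac1 for Cnn2 (r = 0.882 and 0.871), Sike1 and Slf1 for Homez (0.927 and 0.912), and Dnajc18 and Svep1 for Tulp2 (0.928 and 0.90). For Tsen15 they were Exosc8, a subunit of the RNA exosome, and Nudt3 (0.901 and 0.899). For Pomc they were Ppp2r2b and Tmem123 (0.817 and 0.816) and for Best1 Apoa4 and Yipf3 (0.785 and 0.782). None of these 12 genes was called in muscle minus pancreas. Between the 7 genes themselves, the deviations of Cnn2 and Bace2 had r = 0.639, and those of Bace2 and Homez r = −0.614.

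**Figure D4:**
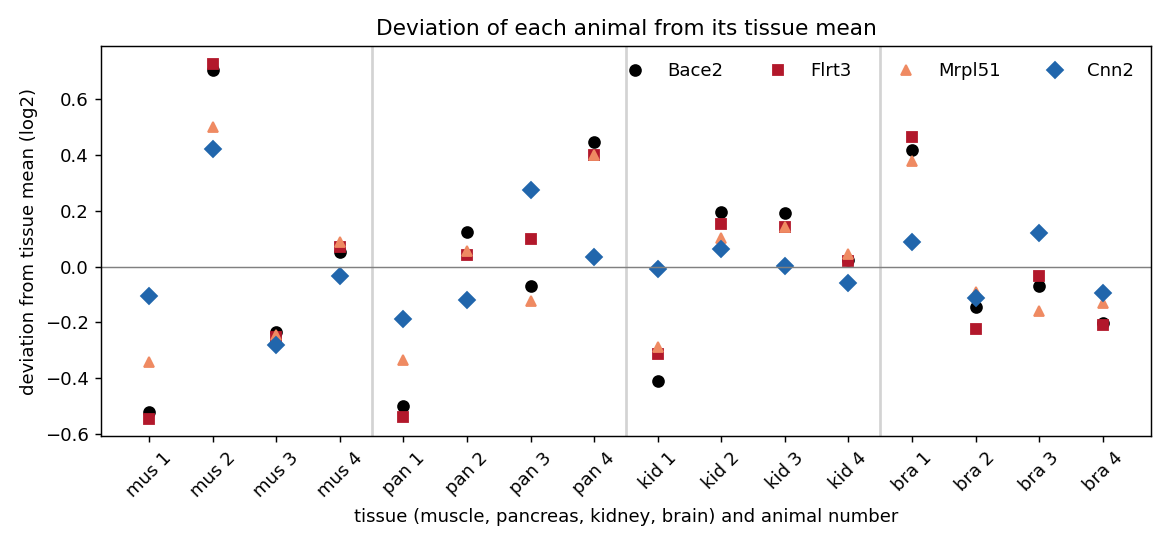
Deviation of each animal's log2 ratio from the mean of its tissue (vertical axis), for 4 animals in each of muscle, pancreas, kidney and brain, in Bace2, its 2 most similar named genes and Cnn2. Flrt3 and Mrpl51 follow Bace2 across the tissues (r = 0.982 and 0.980), and Cnn2 less closely (r = 0.639).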

How the data were processed

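The authors deposited 1 log2 ratio per probe and array; the base was inferred from the largest values. Scanner, background correction, normalisation, filters and genome build of the array files were not given in the sources used here. Per the labels' protocols, the arrays were hybridised with cDNA carrying Cy3 or Cy5 through indirect labelling. Of 20794 probes, 12771 had 1 gene symbol and 8023 none. Probes without a symbol were tested, each as a gene of its own, but never named. Values beyond 8 in size (1844, of which 0 in the 7 genes) were kept and taken as missing in an alternative. The number of arrays limits the precision, and probe sequences were not used here, so cross-hybridisation between relatives was not tested.

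Probes of a symbol were averaged, then the 2 arrays of an animal, both required. In limma 3.58.1 (R 4.3.3), lmFit and eBayes tested each tissue's mean over animals against 0, for genes with at least 3 animals, and the differences muscle minus pancreas and kidney minus brain in 1 fit of all 4 tissues. Tests were two-sided, with Benjamini-Hochberg adjustment over all genes and a threshold of 0.05; the script was tested on simulated data. SD is the spread between animals, SE that of limma's fit, and intervals for tissue means are the plain ones over 4 animals.

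The genes and all gene lists were chosen with earlier results of these data known. Genes named in the text are the 7 genes, every measured member of their families and of the Pomc processing genes, listed genes that passed a test, the 2 named genes most correlated with each of the 7 among genes with all values and none beyond 8, and the fifth and sixth named genes by p in each direction of muscle minus pancreas. Ncstn, Lepr and Nr4a1 were added after their values were seen. The animal numbers pair the tissues, since the labels give the same animals; deviations from tissue means correlated between tissues at r from −0.104 to 0.133. With the animal as a block, 24 genes were called in muscle minus pancreas, against 94 without it. Alternatives were missing floor values, turned signs, each dye alone, centring, scaling, 1 array per animal, each animal left out, probe medians, complete genes, the block, other tissues in the fit and robust moderation.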

Additional observations from a re-analysis of the deposited data

Results flagged for a closer look

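In brain, Tsen15 had 0.08 in animal 3, while the other 3 animals lay from −0.17 to −0.14, a gap large for a group of 4. Pcsk1n in pancreas had −4.31 in animal 2, while the other 3 animals lay from −0.57 to 0.07. These were 2 of 58 groups examined, and chance alone flags about 1 in 20.

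For 5 genes every muscle animal lay on one side of 0 and every pancreas animal on the other. The muscle minus pancreas differences were 1.12 for Cnn2, −0.74 for Homez, −0.67 for Tulp2, −0.74 for Tsen15 and −0.63 for Pomc. These differences chose the genes and were not tested. Muscle and pancreas animals did not overlap for 4.74% of all genes, and their means had opposite signs for 51.2%. The share of all genes with both properties was not counted, so nothing is read from the 5.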

How the results depend on the processing

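With the Cy3 arrays turned, genes called numbered 1 in brain, 328 in muscle, 2388 in pancreas and 5 in muscle minus pancreas, against 0, 0, 0 and 94. Under that reading 2 of the 7 genes, Best1 and Tulp2, had opposite signs in muscle and pancreas, against 6 as deposited. Muscle minus pancreas then became −0.22 for Cnn2, 0.88 for Tulp2 and 0.088 for Pomc; the kidney mean became −5e-04 for Best1, −0.20 for Cnn2, −0.10 for Bace2, 0.050 for Homez and −0.078 for Tsen15; the brain mean −0.066 for Best1, 0.033 for Bace2, 0.048 for Homez and 0.019 for Tulp2; and kidney minus brain −0.10 for Cnn2, −0.13 for Bace2 and 0.0020 for Homez. With the knockout in Cy5 alone, calls numbered 1 in brain, 1 in pancreas and 191 in muscle minus pancreas, and 3 genes had opposite signs. Tulp2 then had 0.21 in muscle minus pancreas, the kidney means were −0.16 for Cnn2, −0.035 for Bace2 and −0.036 for Tsen15, and the brain mean of Homez was 0.0030. With Cy3 alone, calls numbered 1 in muscle and 13 in muscle minus pancreas; Pomc had −0.16 in kidney, −0.11 in brain and −0.052 in their difference, kidney minus brain was −0.016 for Best1 and 0.044 for Tulp2, and Tsen15 in brain was 0.0058.

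Calls in muscle minus pancreas numbered 151 with floor values missing, 0 with arrays scaled, 54 with 1 of 2 arrays required, 24 with the animal as a block and 0 with only those tissues fitted. Leaving out animals gave 1 to 115 calls: 115 without animal 1, 1 without animal 2, 2 without animal 3 and 3 without animal 4. It gave 0 to 1 in brain, in muscle and in kidney minus brain. Kidney had 1 call with floor values missing and 1 with robust moderation; a spread shared by all tissues gave 255 calls in muscle and 57 in pancreas. With 1 animal left out, the kidney mean of Bace2 ran from −0.00083 (without animal 2) to 0.20 (without animal 1). The brain mean of Pomc ran from −0.0057 (without animal 3) to 0.045, and its kidney minus brain difference from −0.030 (without animal 4) to 0.089. The cause of these shifts was not tested. Over 13 alternatives, muscle minus pancreas kept its direction in 13 for Best1, Bace2, Homez and Tsen15, in 12 for Cnn2 and Pomc, and in 11 for Tulp2. No read depth applies to these array ratios. The number of arrays limits their precision, and the open sign of the Cy3 arrays leaves some directions unsettled.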
